A study of Mus musculus with 71 samples.

Results

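Wild-type mouse oocytes made in culture were compared between day 13 and day 11 of differentiation, in the RNA of sorted cells. The comparison takes in the libraries whose names give wild type and either day, 2 of day 13 and 2 of day 11, which are 4 of the 71 samples of the study, and covers every gene of the table used here. The remaining samples are knockouts of the same kind of oocyte, directly induced oocyte-like cells, oocytes grown in the animal to the germinal vesicle (GV) stage, and 3 samples of oocytes from the animal labelled Pr-fol-P3, which were not analysed here. The GV oocytes used below are the incompetent ones, whose column names carry 2w, read here as an age of 2 weeks. Cells of both days shared 1 genetic background, C57BL/6 X 129, and carried the reporters Blimp1-Venus and Stella-CFP. They started as embryonic stem cells, passed through primordial germ cell-like cells and were then grown in reconstituted ovaries beside somatic cells of female gonads of embryonic day 12.5. From day 7 to day 10 of that culture the medium held 500 nM ICI182780, an estrogen receptor antagonist, so both sorts came after its removal. On day 13 or day 11 the aggregates were taken apart with enzymes and oocytes positive for the SC reporter were sorted by flow cytometry. The labels do not name the stem cell clone and do not say whether the libraries of a day are separate cultures, so the p-values speak only of the spread among the libraries.

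An oocyte enters meiosis in the fetal ovary, stops in prophase and is enclosed by flat somatic cells as a primordial follicle. When a follicle is recruited its oocyte grows many times over, lays down the egg coat or zona pellucida, stores messenger RNA and protein for the embryo and sets its DNA methylation imprints, while the granulosa cells around it divide and feed it through gap junctions. In the mouse the factors FIGLA, NOBOX, SOHLH1, LHX8 and TBPL2 drive the oocyte programme of transcription. Figla, Nobox and Zp2 were not analysed here, because the genes used lie almost all on chromosomes 1 to 5 and 10 to 19.

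Promoters of 4 oocyte genes that rose on day 13 are printed because such genes are among the largest gains in TPM. Sequences are from RefSeq (GRCm38.p6), cover 250 bases before to 50 bases after the annotated start, and read 5′ to 3′ on the strand of the gene. Capitals mark CANNTG, the E-box letters that basic helix-loop-helix proteins such as FIGLA and SOHLH1 read, and TAATTG or its complement CAATTA, the letters preferred by NOBOX in the mouse. Both motifs were searched on both strands, and overlapping matches were each counted. Zp3 lies at chr5:135979855-135980154 on the plus strand, Oosp1 at chr19:11691002-11691301 on the minus strand, Zar1 at chr5:72581035-72581334 on the minus strand and Padi6 at chr4:140742594-140742893 on the minus strand.
Zp3: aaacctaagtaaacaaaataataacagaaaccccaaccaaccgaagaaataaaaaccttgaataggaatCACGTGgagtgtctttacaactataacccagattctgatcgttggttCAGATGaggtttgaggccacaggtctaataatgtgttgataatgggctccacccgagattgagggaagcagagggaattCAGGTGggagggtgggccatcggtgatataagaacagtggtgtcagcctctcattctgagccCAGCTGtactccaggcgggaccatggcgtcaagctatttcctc
Oosp1: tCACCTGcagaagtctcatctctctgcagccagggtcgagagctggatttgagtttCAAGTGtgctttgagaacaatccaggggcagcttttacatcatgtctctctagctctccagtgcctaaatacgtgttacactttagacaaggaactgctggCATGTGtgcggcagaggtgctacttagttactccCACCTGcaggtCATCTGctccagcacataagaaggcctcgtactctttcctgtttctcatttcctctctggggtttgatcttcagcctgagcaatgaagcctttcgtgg
Zar1: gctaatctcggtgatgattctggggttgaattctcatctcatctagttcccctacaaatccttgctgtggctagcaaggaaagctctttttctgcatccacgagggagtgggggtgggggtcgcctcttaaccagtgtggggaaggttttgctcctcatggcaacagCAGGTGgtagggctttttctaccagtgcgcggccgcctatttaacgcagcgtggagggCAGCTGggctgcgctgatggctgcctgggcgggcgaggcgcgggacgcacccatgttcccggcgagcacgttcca
Padi6: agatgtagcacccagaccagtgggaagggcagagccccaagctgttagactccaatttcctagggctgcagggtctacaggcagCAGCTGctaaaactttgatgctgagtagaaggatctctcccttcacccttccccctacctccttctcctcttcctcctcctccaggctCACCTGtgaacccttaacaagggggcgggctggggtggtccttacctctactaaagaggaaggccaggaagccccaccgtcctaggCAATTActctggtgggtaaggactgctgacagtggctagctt
The window held 4 CANNTG matches at Zp3, 5 at Oosp1, 2 at Zar1 and 2 at Padi6, and 1 match to the NOBOX letters, at Padi6. Of all promoters in the table with 1 start per gene, 72.4% held at least 1 CANNTG and 8.29% held the NOBOX letters. Among genes of the comparison with 1 such promoter, CANNTG stood in 294 of 400 that rose (73.5%), in 731 of 1207 that fell (60.6%) and in 4836 of 7402 tested (65.3%). The NOBOX letters stood in 7.5% of those that rose, 4.06% of those that fell and 4.89% of those tested. These shares are a description of letters, and binding was not measured.

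Between the days 677 genes rose, which is 5.5% of the 12306 tested, and 2030 fell, which is 16.5%, so that 22.0% changed. A gene rose or fell where limma gave an adjusted p under 0.05 and a log2 change of at least 1. All log2 changes are day 13 over day 11 on log2(TPM + 1), given ± SE, and levels are TPM, transcripts scaled for length and to a fixed total per library. Read depth cannot be known from TPM. Of the genes that rose 254 did so at a log2 of at least 2 and 78 at a log2 of at least 3. Of those that fell 856 and 379 did so. With 2 libraries a day, both libraries of day 13 lay above both of day 11 in 18.3% of the genes tested and below both in 44.3%, so that values apart by day are common.

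TPM sum to the same total in each library, and a few transcripts took a much larger share of it on day 13. The most abundant gene used here took 2.94 and 2.85% of the total on day 13, against 0.68 and 0.671% on day 11. The 10 most abundant of the genes used took 8.56 and 8.42% on day 13, against 2.95 and 2.96% on day 11. The genes used summed to 668517 and 667558 TPM on day 13, against 671604 and 671701 on day 11. Part of each total therefore lies in genes not seen here. Of all TPM gained on day 13 by the genes used, the 10 largest gains made up 42.3%. The 10 largest losses made up 4.18% of all TPM these genes lost. The median log2 change over all genes tested was -0.24. Rescaling by the median of ratios used log2 scale factors that differed by -0.436 (mean of day 13 minus mean of day 11). Abundant genes therefore moved up by more than the size of that median. After rescaling the median over all genes tested was 0. It left 1154 genes higher (9.38%) and 1360 lower (11.1%), together 20.4%. All 677 genes that rose also rose after rescaling, 1359 of the 2030 that fell did so, and 0 turned round. Counts after rescaling therefore stand beside those of the gene groups where they differ. Each count of a gene group is to be read against the shares over all genes tested. Those are 5.5% that rose and 16.5% that fell, or 9.38% and 11.1% after rescaling. No count of a group was tested against them. The libraries of a day correlated at r = 0.986 across genes on day 13 and r = 0.959 on day 11, and libraries of different days at 0.892 to 0.898. Each showed 8910 and 8939 genes at 1 TPM or more on day 13, against 9577 and 9340 on day 11.

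**Figure D1:**
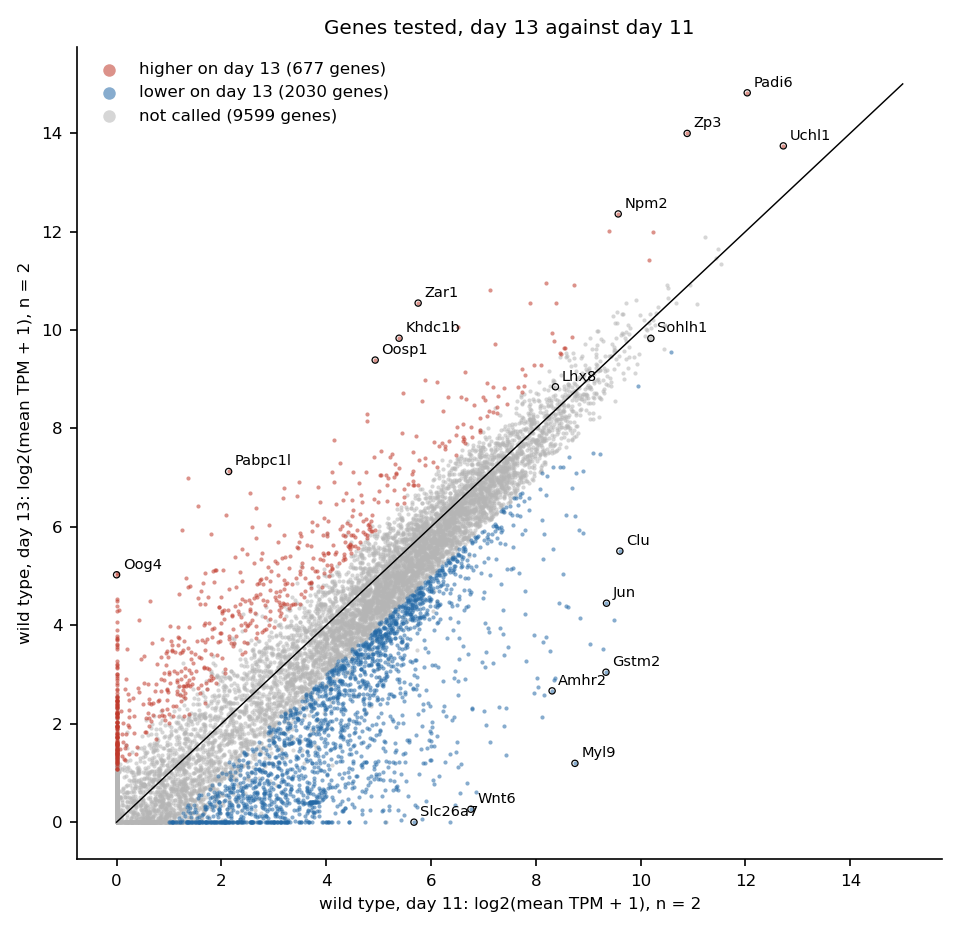
Mean level of each tested gene in wild-type oocytes of day 13 (vertical axis) against day 11 (horizontal axis), both as log2(mean TPM + 1) of 2 libraries, with the line of equal levels. Red points are the 677 genes that rose and blue points the 2030 that fell; Zp3 and Padi6 stand at the top among the most abundant transcripts, and Myl9 and Wnt6 lie near the floor of day 13.

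The egg coat list, which also holds secreted oocyte factors, rose as a group. Of 13 listed genes 8 are in the table, all 8 were tested and 8 rose, with a median log2 change of 2.89 against -0.24 over all genes. Zp3, the zona pellucida glycoprotein that binds sperm in the mouse (chromosome 5, 135980099 to 135988624, GRCm38), had 16420 and 16230 TPM on day 13, against 1943 and 1843 on day 11 (log2 change 3.11 ± 0.11, adjusted p = 2.5e-17). The libraries of each day lie within a narrow band, and the level on day 13 was 8.62-fold that on day 11. Zp1, which cross-links the filaments of the coat, had 4180 and 4077 TPM on day 13, against 684 and 655 on day 11 (log2 change 2.62 ± 0.43, adjusted p = 2e-05). Astl encodes ovastacin, the protease that hardens the coat after fertilisation, and had 1527 and 1487 TPM on day 13, against 237 and 234 on day 11 (log2 change 2.67 ± 0.31, adjusted p = 1e-07). Both were several-fold higher in each library of day 13.

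Among secreted factors, Gdf9, the growth factor through which the oocyte acts on granulosa cells, had 1976 and 1897 TPM on day 13, against 400.2 and 448 on day 11 (log2 change 2.19 ± 0.35, adjusted p = 1.3e-05). Fgf8, an oocyte growth factor that acts on cumulus cells in the mouse, was much scarcer, with 41.8 and 37 TPM on day 13, against 6.22 and 5.36 on day 11 (log2 change 2.57 ± 0.64), and a pseudocount of 0.1 ended its call (adjusted p = 0.11). The 3 oocyte-secreted protein genes Oosp1, Oosp2 and Oosp3 lie side by side on chromosome 19 (chromosome 19, 11667460 to 11691150 for Oosp1). Oosp1 had 645 and 694 TPM on day 13, against 34.9 and 24.3 on day 11 (log2 change 4.48 ± 0.54, adjusted p = 2.5e-07), a level 22.6-fold as high on day 13. Oosp2 had 493 and 483 TPM on day 13, against 26.1 and 111 on day 11 (log2 change 3.15 ± 0.75, adjusted p = 0.0014), so its day 11 libraries differed several-fold from each other while those of day 13 agreed closely. Its call ended without replicate 1 of day 11 (adjusted p = 0.055) and at a pseudocount of 0.1 (adjusted p = 0.09). Oosp3 was scarce, with 24.1 and 42.8 TPM on day 13, against 0 and 5.14 on day 11 (log2 change 3.74 ± 0.58, 2.43 without replicate 1 of day 11).

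The subcortical maternal complex is a protein assembly under the oocyte membrane that early embryos need. Of 18 listed genes 4 are in the table and 4 rose (median log2 change 1.95). Padi6, a component of the cytoplasmic lattices, was the most abundant of the genes used on day 13, with 29350 and 28460 TPM on day 13, against 4245 and 4138 on day 11 (log2 change 2.79 ± 0.12, adjusted p = 1.8e-15). Its gain in TPM was the largest among the genes used. Tle6, a core member of the complex, had 4076 and 4009 TPM on day 13, against 1211 and 1201 on day 11 (log2 change 1.74 ± 0.22, adjusted p = 4.4e-07). Zbed3, a member described in the mouse, had 1500 and 1493 TPM on day 13, against 321 and 349.5 on day 11 (log2 change 2.16 ± 0.13). Nlrp4f, of the NLRP family, had 942 and 907 TPM on day 13, against 454 and 375 on day 11 (log2 change 1.16 ± 0.25). Its log2 change was the smallest of the 4. Other genes with large gains in TPM were Npm2, the oocyte nucleoplasmin that handles sperm chromatin, with 5299 and 5200 TPM on day 13, against 805 and 715 on day 11 (log2 change 2.79 ± 0.38, adjusted p = 1.6e-06), and Miox, a myo-inositol oxygenase, with 1826 and 1793 TPM on day 13, against 134 and 144 on day 11 (log2 change 3.70 ± 0.62). Uchl1, an abundant ubiquitin hydrolase of oocytes, had 13870 and 13510 TPM on day 13, against 6798 and 6714 on day 11 (log2 change 1.02 ± 0.067, adjusted p = 4.8e-12). Its log2 change of 1.00 without replicate 1 of day 13 fell just under the threshold of 1. Polr2j, a subunit of RNA polymerase II, had 2791 and 2732 TPM on day 13, against 1203 and 1088 on day 11 (log2 change 1.27 ± 0.11).

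Genes that store and translate maternal messenger RNA split. Of 25 listed genes 16 were tested, of which 4 rose and 2 fell (6 rose and 2 fell after rescaling), with a median log2 change of 0.29. Pabpc1l, the poly(A)-binding protein of oocytes and embryos, had 131 and 146 TPM on day 13, against 3.29 and 3.51 on day 11 (log2 change 4.99 ± 0.29, adjusted p = 3.6e-13), which is 40.8-fold as high. Zar1, a maternal RNA-binding protein, had 1537 and 1453 TPM on day 13, against 59.1 and 46.9 on day 11 (log2 change 4.80 ± 0.21, adjusted p = 1.9e-15). In both genes every library of day 13 lay many-fold above those of day 11. Eif4e1b, an oocyte form of the cap-binding protein, had 1051 and 1069 TPM on day 13, against 81.9 and 97.9 on day 11 (log2 change 3.55 ± 0.78, adjusted p = 0.0006), and a pseudocount of 0.1 ended its call (adjusted p = 0.061). Patl2, an RNA-binding protein of oocytes, had 133 and 141 TPM on day 13, against 22.2 and 21.6 on day 11 (log2 change 2.59 ± 0.44). The members that fell were Zcchc11, a terminal uridylyltransferase, with 4.44 and 5.07 TPM on day 13, against 30.5 and 39.6 on day 11 (log2 change -2.64 ± 0.18), and Papolg, a poly(A) polymerase. Ybx2, the most abundant of the list and a general RNA-binding protein of germ cells, had 1906 and 1807 TPM on day 13, against 1488 and 1464 on day 11 and was not called (log2 change 0.33 ± 0.094, adjusted p = 0.006).

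Several oocyte gene families that sit in clusters held members that rose, though how reads shared by near-identical copies were counted is not stated, so their levels are uncertain. Khdc1a, Khdc1b and Khdc1c, which encode KH domain proteins, lie within a short stretch of chromosome 1 (chromosome 1, 21383556 to 21386373 for Khdc1b). Khdc1b had 914 and 908 TPM on day 13, against 40.7 and 41.2 on day 11 (log2 change 4.44 ± 0.45, adjusted p = 1.3e-08). Khdc1a had 110.5 and 94.8 TPM on day 13, against 3.45 and 6.15 on day 11 (log2 change 4.20 ± 0.26). Khdc1c had 14.9 and 28.2 TPM on day 13 and was listed at 0 in both libraries of day 11 (adjusted p = 5.2e-10). The levels on day 13 differed many-fold between the copies.

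Of 14 oogenesin and PRAME-like genes 7 were tested and 4 rose, while 7 were listed at 0 in both libraries of day 13 and 11 in both of day 11. Oog4 (chromosome 4, 143437164 to 143450324) had 33.6 and 29.6 TPM on day 13 and was listed at 0 in both libraries of day 11 (adjusted p = 3.5e-12). Oog3 had 9.41 and 12.9 TPM on day 13 and was listed at 0 in both libraries of day 11 (adjusted p = 1.8e-08), and Oog1 and Oog2 were scarcer, at 6.7 and 7.45 TPM and at 5.93 and 2.67 TPM on day 13, and were listed at 0 on day 11. Pramef12, the most abundant of the list, had 381 and 425 TPM on day 13, against 355 and 282 on day 11 and was not called (log2 change 0.35 ± 0.12). The related genes C87977 and C87499 had 32.9 and 31.7 TPM and 19.9 and 24.7 TPM on day 13 and were listed at 0 on day 11. In all, 417 genes were listed at 0 in both libraries of day 11 and above 0 in both of day 13, 193 of them with a mean of at least 1 TPM, and 202 were listed at 0 on day 13 only, 177 of them with a mean of at least 1 TPM.

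The Oas1 family on chromosome 5 holds copies related to an antiviral enzyme, several of them read mainly in oocytes in the mouse. Of 8 genes 4 rose (median log2 change 0.93). Oas1e had 489 and 476 TPM on day 13, against 130.1 and 136 on day 11 (log2 change 1.85 ± 0.38, adjusted p = 0.00029) and Oas1c had 459.6 and 455 TPM on day 13, against 142 and 148 on day 11 (log2 change 1.65 ± 0.25). Oas1d (log2 change 1.49 ± 0.45) and Oas1h (log2 change 1.03 ± 0.37) changed less. The calls of Oas1d, Oas1e and Oas1h ended at a pseudocount of 0.1 (adjusted p = 0.15, 0.098 and 0.069), and that of Oas1h also when any 1 of the 4 libraries was left out (adjusted p of 0.075 to 0.11).

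The genes with the largest rises outside these groups were of mixed kinds. Sp110, a nuclear body protein, had 132 and 119.5 TPM on day 13, against 3.12 and 0 on day 11 (log2 change 5.96 ± 0.77, adjusted p = 6.3e-07), the largest log2 rise among genes at 10 TPM or more. Cyp2c29, a cytochrome P450, had 85.8 and 83.8 TPM on day 13, against 1.97 and 1.89 on day 11 (log2 change 4.87 ± 0.40). Adm2, a peptide hormone of the calcitonin family, had 72.4 and 76.1 TPM on day 13, against 6.55 and 0 on day 11 (log2 change 4.78 ± 0.48). Each of the 3 was scarce on day 11. Gnrh1, the gonadotropin-releasing hormone gene, had 56.4 and 58 TPM on day 13, against 1.12 and 3.83 on day 11 (log2 change 4.18 ± 0.64). Tfap2e, a factor of the AP-2 family, had 23.6 and 14.2 TPM on day 13, against 0 and 0.07 on day 11 (log2 change 4.23 ± 0.47). Cd200r3, a receptor gene of the immunoglobulin family, had 17.1 and 20 TPM on day 13 and was listed at 0 in both libraries of day 11 (adjusted p = 6.4e-09). Plac8 had 102 and 136 TPM on day 13, against 1.26 and 19 on day 11, and its day 11 libraries differed so much that the call ended without either replicate 1 of day 11 (log2 change 2.57, adjusted p = 0.18) or replicate 2 of day 13 (adjusted p = 0.057).

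**Figure D2:**
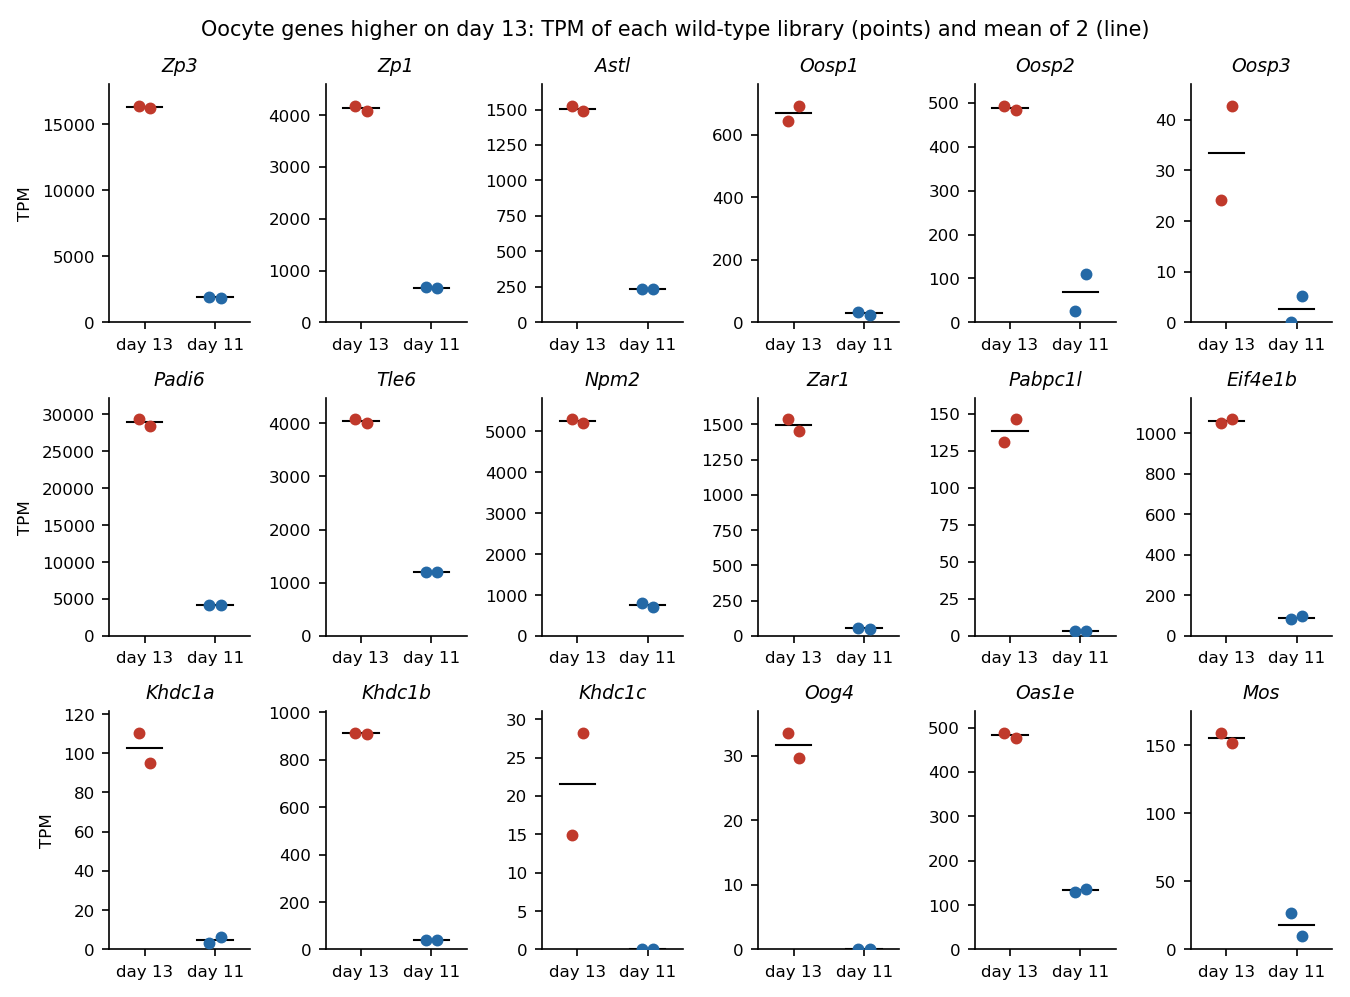
TPM of each wild-type library (points) and mean of 2 (line) for 18 oocyte genes that rose on day 13, with day 13 at the left of each panel and every vertical axis starting at 0. The genes were chosen because they rose, so the days do not overlap in any panel, as in 18.3% of all genes tested in that direction, and the day 11 points of Oosp2 are the most spread.

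Changes among oocyte transcription factors went both ways. Of 22 listed 10 were tested, of which 2 rose and 1 fell (3 rose and 0 fell after rescaling), with a median log2 change of 0.10. Sohlh1, a basic helix-loop-helix factor of early oocytes, was the most abundant, with 908 and 911 TPM on day 13, against 1125 and 1218 on day 11, and was not called (log2 change -0.36 ± 0.42, adjusted p = 0.55, 0.07 after rescaling). Lhx8, a homeobox factor of the same stage, had 464 and 454 TPM on day 13, against 374 and 287 on day 11 and was not called (log2 change 0.49 ± 0.12, adjusted p = 0.0015). Both were thus already high on day 11. Tbpl2, the paralog of the TATA-binding protein used by growing oocytes, had 210.2 and 212 TPM on day 13, against 67 and 64.1 on day 11 (log2 change 1.67 ± 0.49, adjusted p = 0.0071), and a pseudocount of 0.1 ended its call (adjusted p = 0.089). Both p-values also draw on spread within knockout groups, whose Tbpl2 means on day 11 were 0 to 8.135 TPM. Sebox, a maternal homeobox factor, had 13.6 and 18.9 TPM on day 13, against 0.68 and 0 on day 11 (log2 change 3.71 ± 0.31, adjusted p = 4.7e-10). Sohlh2, the partner of SOHLH1, had 37.4 and 41.7 TPM on day 13, against 77.8 and 94.9 on day 11 (log2 change -1.10 ± 0.14, adjusted p = 2.9e-07) and did not pass after rescaling (log2 change -0.68) or without replicate 2 of day 11 (-0.96). Tbpl2, Sebox and Sohlh2 were the called members of the list. Stat3, the signal-dependent factor, had 486 and 497 TPM on day 13, against 309 and 328 on day 11 (log2 change 0.62 ± 0.077, adjusted p = 3.6e-07) and passed only after rescaling (log2 change 1.06). Foxo3, which keeps follicles dormant, had 88.4 and 83.5 TPM on day 13, against 88.3 and 86.8 on day 11 (log2 change -0.03 ± 0.15, adjusted p = 0.98), with a log2 change of 0.40 after rescaling. Hes6 had 152 and 148 TPM on day 13, against 149 and 115 on day 11 and Taf4b, an oocyte TFIID subunit, 28.2 and 29.6 TPM on day 13, against 41.1 and 32.2 on day 11, and neither was called. Otx2 was listed at 0 in all 4 libraries.

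Genes that write or guard DNA methylation rose in part. Of 9 tested 3 rose and 2 fell (4 and 1 after rescaling). Uhrf1, the partner of the maintenance methyltransferase, had 899.7 and 862 TPM on day 13, against 325 and 325 on day 11 (log2 change 1.44 ± 0.093, adjusted p = 3.3e-12). Zfp57, a zinc finger protein that protects imprints, had 584 and 592 TPM on day 13, against 211 and 215 on day 11 (log2 change 1.46 ± 0.13). Dnmt3l, the cofactor with which the oocyte sets its imprints, was scarce, with 5.46 and 3.62 TPM on day 13 and was listed at 0 in both libraries of day 11 (adjusted p = 1.6e-06). These were the 3 members that rose. Kdm1b, a histone demethylase needed for those imprints, had 1024 and 991 TPM on day 13, against 552 and 605 on day 11 and passed only after rescaling (log2 change 0.80 ± 0.12, adjusted p = 1e-05, log2 change 1.24 after rescaling). Tet2, which oxidises methylated cytosine, had 2.06 and 2.06 TPM on day 13, against 9.47 and 6.83 on day 11 (log2 change -1.56 ± 0.22). Uhrf2 had 18.6 and 21.1 TPM on day 13, against 44 and 42.6 on day 11 (log2 change -1.09 ± 0.24; log2 change -0.67 after rescaling, not called).

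Of 15 histone variant and nucleoplasmin genes 1 rose, the Npm2 described above, and 3 fell (2 and 1 after rescaling). These counts lie near the shares over all genes tested, of which 5.5% rose and 16.5% fell. H2afy, which encodes macroH2A, had 142 and 152 TPM on day 13, against 345 and 386 on day 11 (log2 change -1.31 ± 0.091). H2afy2, its paralog, had 6.29 and 6.48 TPM on day 13, against 23.9 and 43.8 on day 11 (log2 change -2.18 ± 0.31). H2afy did not pass after rescaling (log2 change -0.87) and H2afy2 did (-1.78). Of 25 polycomb and trithorax genes 0 rose and 6 fell (3 after rescaling), against 16.5% of all genes that fell (11.1% after rescaling). Pcgf2, a subunit of polycomb complex 1, had 3.23 and 4.09 TPM on day 13, against 26 and 26.3 on day 11 (log2 change -2.55 ± 0.24), and Cbx6, a chromobox reader of the polycomb mark, fell as well (log2 change -2.03 ± 0.28). Wdr5, the most abundant and a subunit of histone methyltransferases, had 327 and 339 TPM on day 13, against 253 and 225 on day 11 and was not called. Replication-dependent histone transcripts, most of which carry no poly(A) tail, were low in these polyA-selected libraries: 41 of 66 were listed at 0 in both libraries of day 13 and 46 in both of day 11.

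Among meiotic prophase genes those that make and repair breaks were lower or not called on day 13. Of 16 recombination genes 0 rose and 8 fell (6 after rescaling), with a median log2 change of -1.02. Spo11, the enzyme that makes meiotic breaks, had 1.3 and 1.32 TPM on day 13, against 9.34 and 15.2 on day 11 (log2 change -2.49 ± 0.70, adjusted p = 0.0057), and its call ended without replicate 2 of day 11 (adjusted p = 0.057). Dmc1, the meiotic recombinase, had 1.8 and 6.16 TPM on day 13, against 13.2 and 20.2 on day 11 (log2 change -1.96 ± 0.31, adjusted p = 1.3e-05, -1.28 without replicate 1 of day 13). Meiob and Spata22 encode partners that bind single-stranded DNA. Meiob had 7.72 and 10.8 TPM on day 13, against 47.5 and 35.8 on day 11 (log2 change -2.06 ± 0.21). Spata22 had 4.94 and 2.83 TPM on day 13, against 22.5 and 16.5 on day 11 (log2 change -2.09 ± 0.35). Msh5, a crossover factor, had 5.46 and 4.48 TPM on day 13, against 19.5 and 18.8 on day 11 (log2 change -1.76 ± 0.42). These 5 genes were scarce on day 13.

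Of 10 genes of the chromosome axis and synaptonemal complex 2 fell and 0 rose. Rec8, the meiotic cohesin, had 0.28 and 0.94 TPM on day 13, against 13.8 and 13.3 on day 11 (log2 change -3.21 ± 0.95, adjusted p = 0.0083), with its call lost without replicate 1 of day 13 (adjusted p = 0.065). Hormad1, an axis protein, had 10.7 and 6.32 TPM on day 13, against 35.4 and 32.4 on day 11 (log2 change -1.91 ± 0.26). Both were scarce on day 13. Sycp3, the abundant axis component, had 872 and 908 TPM on day 13, against 1094 and 1190 on day 11 and was not called (log2 change -0.36 ± 0.049, adjusted p = 1.6e-06, 0.08 after rescaling). In the piRNA pathway, which silences transposons in germ cells, 1 of 19 genes rose and 0 fell (4 rose after rescaling), and Gtsf1, the most abundant, had 779.7 and 772 TPM on day 13, against 766 and 682 on day 11 (log2 change 0.10 ± 0.11).

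Of 20 regulators of meiotic arrest and resumption 4 rose and 3 fell (6 and 1 after rescaling), while 5.5% of all genes tested rose and 16.5% fell. Mos, the kinase behind arrest of the mature egg, had 159 and 151 TPM on day 13, against 26.9 and 9.65 on day 11 (log2 change 3.18 ± 0.51, adjusted p = 1.5e-05). Cdc25b, the phosphatase that starts maturation in mouse oocytes, had 138 and 153 TPM on day 13, against 36 and 45.8 on day 11 (log2 change 1.81 ± 0.36, adjusted p = 0.00022), a call that a pseudocount of 0.1 ended (adjusted p = 0.067). Fbxo5, an inhibitor of the anaphase-promoting complex, had 61.4 and 49.8 TPM on day 13, against 23 and 16.1 on day 11 (log2 change 1.48 ± 0.24). Ccnb1, cyclin B1, had 37.6 and 44.6 TPM on day 13, against 9.23 and 29.4 on day 11 (log2 change 1.25 ± 0.30). The call of Ccnb1 ended without replicate 1 of day 11 (log2 change 0.47, adjusted p = 0.18), while without replicate 2 of day 11 the log2 change was 2.04. Npr2, the receptor by which somatic cells of the follicle make the cyclic GMP that holds arrest, had 1.09 and 1.23 TPM on day 13, against 30.3 and 40.5 on day 11 (log2 change -4.06 ± 0.27). Fzr1, the most abundant, had 381 and 382 TPM on day 13, against 319.6 and 303 on day 11 and was not called (log2 change 0.29 ± 0.078).

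Partner genes of oocyte and granulosa cell differed in their changes. Kit, the receptor on the oocyte, had 543 and 512 TPM on day 13, against 455 and 494 on day 11 and was not called (log2 change 0.15 ± 0.077, adjusted p = 0.12), while Kitl, its ligand from granulosa cells, had 3.2 and 4.42 TPM on day 13, against 60.4 and 88.1 on day 11 (log2 change -3.95 ± 0.39, adjusted p = 7.2e-09). Kitl was the 1 gene called of 16 in KIT, PI3K and FOXO signalling. Of the connexins that form gap junctions, Gja4, the oocyte's connexin, had 314 and 306 TPM on day 13, against 198 and 208 on day 11 and passed only after rescaling (log2 change 0.61 ± 0.26, adjusted p = 0.06, 1.04 after rescaling). Gja1, the granulosa cell connexin, had 6.45 and 6.31 TPM on day 13, against 308 and 337 on day 11 (log2 change -5.45 ± 0.38, adjusted p = 1.2e-11), and was the 1 gene of 13 that fell. In signalling of the TGF-beta family 3 of 24 genes rose and 8 fell (3 and 5 after rescaling). Tgfb2, a ligand, had 67.1 and 75.5 TPM on day 13, against 12 and 17 on day 11 (log2 change 2.24 ± 0.24). Bmp2, a ligand made by granulosa cells, had 0.08 and 0.18 TPM on day 13, against 16.8 and 17.3 on day 11 (adjusted p = 1.9e-08). Inhbb, an activin subunit, had 0.4 and 0.88 TPM on day 13, against 5.99 and 7.51 on day 11 (log2 change -2.25 ± 0.40) and Fst, follistatin, had 2.1 and 3.42 TPM on day 13, against 17.8 and 14.2 on day 11 (log2 change -2.19 ± 0.26). Each of the 3 stood near the floor on day 13.

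Of 17 germ cell and pluripotency genes 3 rose and 3 fell (4 and 2 after rescaling), while 5.5% of all genes tested rose and 16.5% fell. Sall4, a zinc finger factor of germ cells, had 28.3 and 22.3 TPM on day 13, against 7.68 and 5.51 on day 11 (log2 change 1.80 ± 0.32). Esrrb, a nuclear receptor of the pluripotency network, had 16.8 and 14.5 TPM on day 13, against 3.87 and 0.53 on day 11 (adjusted p = 2.7e-06) and Tfap2c, a factor of germ cell specification, had 9.04 and 4.03 TPM on day 13, against 1.62 and 0 on day 11 (log2 change 2.13 ± 0.49). All 3 were scarce on day 11. Dnd1, an RNA-binding protein of early germ cells, had 4.67 and 1.75 TPM on day 13, against 17.1 and 33.7 on day 11 (log2 change -2.67 ± 0.33). Klf4, a pluripotency factor, had 1.5 and 1.91 TPM on day 13, against 34.1 and 43.8 on day 11 (log2 change -3.88 ± 0.55). Both were scarce on day 13. Pou5f1, which encodes OCT4, had 700 and 703 TPM on day 13, against 374 and 392.2 on day 11, and passed only after rescaling (log2 change 0.87 ± 0.098, adjusted p = 6.7e-08, 1.31 after rescaling). Ddx4, the germ cell helicase used here to check the cell type, had 399.6 and 394 TPM on day 13, against 205 and 214 on day 11 (log2 change 0.92 ± 0.083, adjusted p = 1.6e-09) and passed only after rescaling (log2 change 1.35). Ddx4 and the oocyte markers Zp3, Gdf9, Sohlh1, Lhx8 and Padi6 described above were thus high in all 4 libraries. Of these, Zp3, Gdf9 and Padi6 were several-fold lower on day 11 than on day 13.

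Markers of gonadal somatic cells were much lower on day 13. Of 26 granulosa and gonadal somatic markers 22 are in the table and 21 were tested, of which 17 fell and 1 rose, with a median log2 change of -3.35. Their summed level was 82.8 and 78.5 TPM on day 13, against 1105 and 1109 TPM on day 11. Amhr2, the receptor of anti-Müllerian hormone, had 6.61 and 4.1 TPM on day 13, against 319 and 314 on day 11 (log2 change -5.67 ± 0.16, adjusted p = 2.4e-19). Inha, the alpha subunit of inhibin, had 13.5 and 11.7 TPM on day 13, against 295 and 292 on day 11 (log2 change -4.44 ± 0.13, adjusted p = 7.8e-19). Gata4, a transcription factor of gonadal somatic cells, had 4.04 and 4.29 TPM on day 13, against 69 and 80.4 on day 11 (log2 change -3.87 ± 0.20). For each of these 3 genes the day 13 libraries lay far below those of day 11. Wt1, another such factor, had 3.51 and 2.71 TPM on day 13, against 69.8 and 57.5 on day 11 (log2 change -3.98 ± 0.58). Nr5a1, the steroidogenic factor, had 0.39 and 1.27 TPM on day 13, against 28.1 and 30.1 on day 11 (log2 change -4.08 ± 0.66). The member that rose, Lhx2, was near the floor on both days, with 2.84 and 3.61 TPM on day 13, against 0.73 and 1.04 on day 11, and its call ended without replicate 2 of day 13 (adjusted p = 0.059). Within the list 6 members were under 1 TPM in both libraries of day 13, against 1 on day 11. In bulk libraries fewer cells of a type and less RNA per cell cannot be told apart, and the part of somatic RNA in the falls of the comparison was not tested.

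Stromal and smooth muscle markers moved in the same direction, with 11 of 17 falling and 0 rising (10 fell after rescaling) and a sum of 58.6 and 67.1 TPM on day 13, against 1402 and 1426 TPM on day 11. Myl9, a smooth muscle myosin light chain, had 0.79 and 1.79 TPM on day 13, against 428 and 429 on day 11 (log2 change -7.59 ± 0.53, adjusted p = 1.6e-11), the largest fall among the genes named here. Vim, vimentin, had 17.6 and 21.6 TPM on day 13, against 391 and 394 on day 11 (log2 change -4.26 ± 0.70). Sparc, a matrix protein, had 17.8 and 24 TPM on day 13, against 364 and 334 on day 11 (log2 change -4.01 ± 0.56). Vim and Sparc were still well above the floor on day 13. Col6a1, a collagen chain, had 0.72 and 0.75 TPM on day 13, against 97.1 and 106 on day 11 (log2 change -5.88 ± 0.96). Of 4 markers of steroid-producing cells 2 fell (1 after rescaling), among them Hsd3b1, an enzyme of steroid synthesis, with 0.46 and 0.07 TPM on day 13, against 75.5 and 97.3 on day 11 (log2 change -6.12 ± 0.29). Of the blood, endothelial and surface epithelium markers 0 fell. Of 13 blood and macrophage markers 8 were listed at 0 in both libraries of day 13. The 1 called, C1qb, a complement subunit, had 80.8 and 66.1 TPM on day 13, against 15.4 and 27.5 on day 11 (log2 change 1.77 ± 0.58, adjusted p = 0.015), and its call ended without replicate 1 of day 13 (adjusted p = 0.088) or of day 11 (adjusted p = 0.14). Of 6 endothelial markers the receptor kinases Tek and Tie1 rose, both scarce (3 markers rose after rescaling). Tek had 6.81 and 5.29 TPM on day 13, against 1.18 and 0.85 on day 11, and a pseudocount of 0.1 ended its call (adjusted p = 0.11). That of Tie1 ended when any 1 of the 4 libraries was left out (adjusted p of 0.065 to 0.13). Epcam, an epithelial adhesion protein, had 119.7 and 121 TPM on day 13, against 244 and 206 on day 11 and was not called (log2 change -0.89 ± 0.19, adjusted p = 0.00053). The 6 surface epithelium markers with it summed to 128 and 129 TPM on day 13, against 245 and 211 TPM on day 11. Of these 6 markers 1 rose, and 2 rose after rescaling. Among them Lrrn4 rose, with 7.24 and 7.12 TPM on day 13, against 0.76 and 2.56 on day 11, and its call ended at a pseudocount of 0.1 (adjusted p = 0.09) or without either replicate of day 13 or replicate 1 of day 11 (adjusted p of 0.075 to 0.2).

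**Figure D3:**
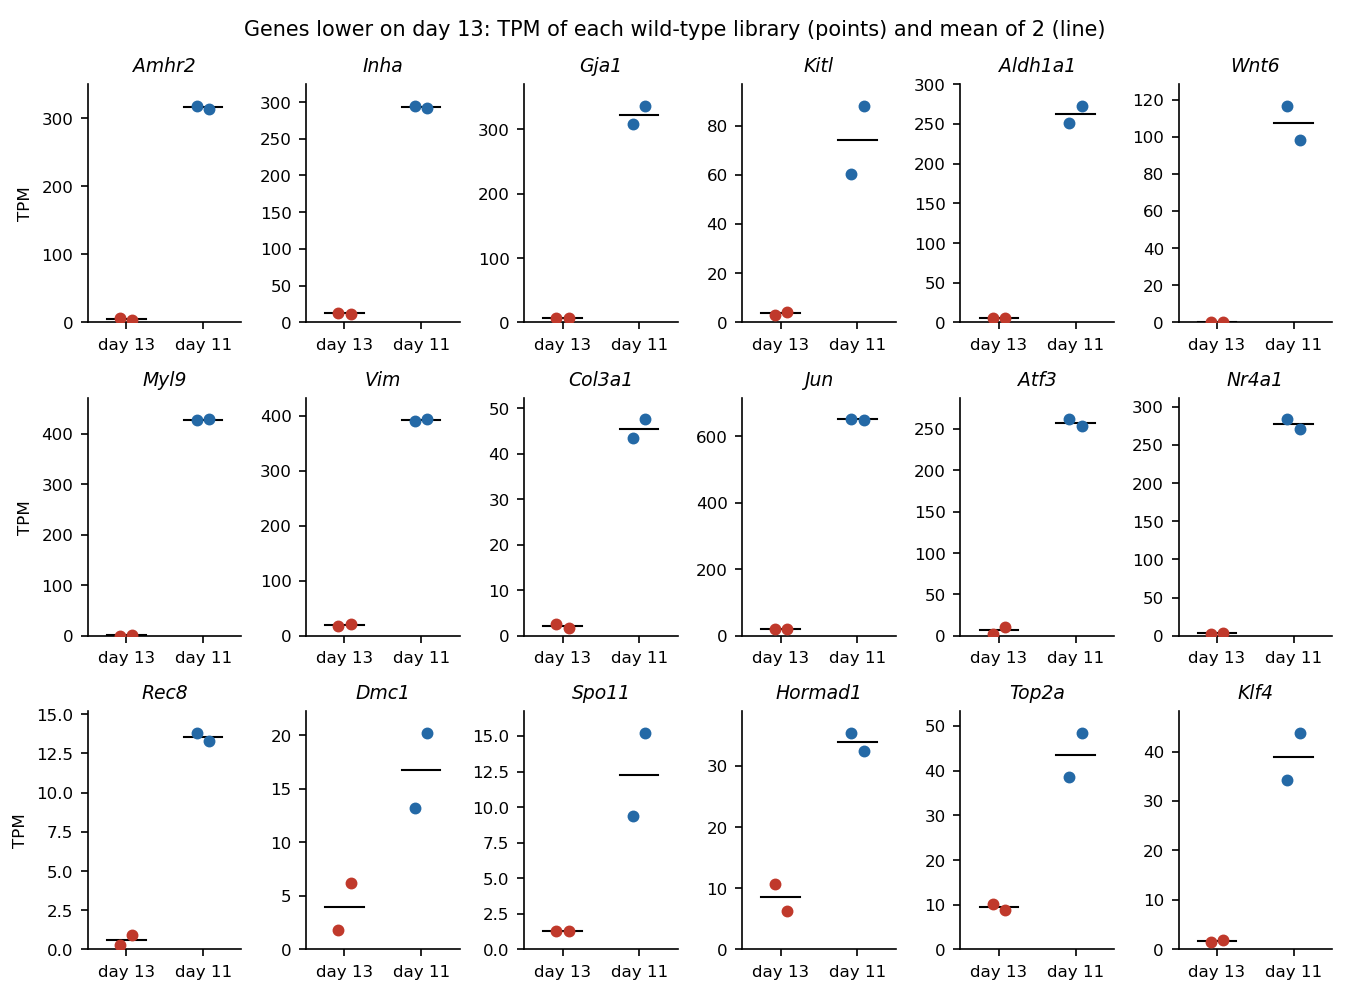
TPM of each wild-type library (points) and mean of 2 (line) for 18 genes that fell on day 13, with day 13 at the left of each panel and every vertical axis starting at 0. The first 9 panels, from Amhr2 to Col3a1, hold somatic markers and the genes Gja1, Aldh1a1 and Wnt6 from other lists. The genes were chosen because they fell. The days do not overlap in any panel, as in 44.3% of all genes tested in that direction.

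Immediate early genes, which cells switch on soon after a stimulus, fell together. Of 17 tested in a list that also holds heat shock genes 12 fell and 1 rose (11 and 1 after rescaling), with the lowest median log2 change of the 44 lists, -3.49. Jun, a subunit of the AP-1 factor, had 21.4 and 20.3 TPM on day 13, against 652 and 649.9 on day 11 (log2 change -4.90 ± 0.29, adjusted p = 6.3e-13). Fos, its partner, had 36.7 and 27.4 TPM on day 13, against 360.5 and 372 on day 11 (log2 change -3.49 ± 0.28, adjusted p = 2.1e-10). Egr3 had 0.43 and 0.48 TPM on day 13, against 44.6 and 48 on day 11 (log2 change -5.02 ± 0.46) and Atf3, a stress-responsive factor, had 2.89 and 10.4 TPM on day 13, against 262 and 253 on day 11 (log2 change -5.28 ± 0.54). The libraries of day 11 were close to each other in all 4 genes. Btg2, an antiproliferative gene, had 22.2 and 18 TPM on day 13, against 372 and 386 on day 11 (log2 change -4.18 ± 0.21). Klf6 had 9.9 and 13.3 TPM on day 13, against 272 and 289 on day 11 (log2 change -4.50 ± 0.36). Nr4a1, a nuclear receptor of the same kind of response though outside the list, had 3 and 3.75 TPM on day 13, against 284 and 270.5 on day 11 (log2 change -6.00 ± 0.42). The member that rose was Hsp90aa1, a heat shock chaperone, with 398 and 411 TPM on day 13, against 157 and 152 on day 11 (log2 change 1.38 ± 0.068). The list fell alongside the somatic markers, and whether the 2 come from the same cells was not tested.

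The 10 largest losses in TPM among the genes used held the Jun described above and 9 other genes. Gnb2l1, a ribosomal scaffold protein, gave the largest, with 761 and 745 TPM on day 13, against 1468 and 1601 on day 11 (log2 change -1.02 ± 0.065, -0.59 after rescaling). Fth1, the ferritin heavy chain, had 437 and 491 TPM on day 13, against 986 and 989 on day 11 (log2 change -1.09 ± 0.12, -0.65 after rescaling). Neither was called after rescaling, and the call of Gnb2l1 ended without replicate 2 of day 11 (log2 change -0.96). Eef2, the elongation factor, had 792 and 784 TPM on day 13, against 1356 and 1435 on day 11 (log2 change -0.82 ± 0.08) and Atp5g3, a subunit of ATP synthase, had 1454 and 1503 TPM on day 13, against 2197 and 2119 on day 11 (log2 change -0.55 ± 0.076), and neither was called before or after it. The remaining 5 fell by far more on the log2 scale. Gstm1 and Gstm2, near-identical glutathione transferases whose shared reads make each level uncertain, were both among the largest losses. Gstm1 had 12.4 and 8.67 TPM on day 13, against 586 and 653 on day 11 (log2 change -5.77 ± 0.40). Gstm2 had 6.28 and 8.25 TPM on day 13, against 630.3 and 662 on day 11 (log2 change -6.30 ± 0.46). The pair had similar levels within each day. Clu, a secreted chaperone, had 42.1 and 46.9 TPM on day 13, against 774 and 779.9 on day 11 (log2 change -4.10 ± 0.15). Cyr61, a matrix signalling protein, had 16.1 and 16.5 TPM on day 13, against 711 and 731 on day 11 (log2 change -5.38 ± 0.21). Sdc4, a cell surface proteoglycan, had 12.4 and 10.1 TPM on day 13, against 508 and 537 on day 11 (log2 change -5.42 ± 0.13). Of the 10 losses, those of Jun and these 5 genes passed after rescaling. Among genes with large log2 falls, Serpina3a, a serpin, had 1.53 and 1.59 TPM on day 13, against 158 and 184 on day 11 (log2 change -6.07 ± 0.31). Other genes were listed at 0 on day 13. S100a1, a calcium-binding protein, had 0 in both libraries on day 13, against 64.8 and 98.2 on day 11 (adjusted p = 1.2e-09). Slc26a7, an anion transporter, had 0 in both libraries on day 13, against 48.9 and 51.2 on day 11 (adjusted p = 5.7e-16).

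Signalling pathways differed in how many of their genes fell. Of 20 Wnt pathway genes 12 fell and 0 rose (7 fell after rescaling; median log2 change -1.20). Wnt6, a ligand, had 0.28 and 0.12 TPM on day 13, against 117 and 98.1 on day 11 (log2 change -6.50 ± 0.36, adjusted p = 1.3e-13). Rspo1, a secreted amplifier of Wnt signals that the somatic ovary uses, had 4.05 and 1.62 TPM on day 13, against 46 and 32.1 on day 11 (log2 change -3.44 ± 0.28). Wnt4, which shares that role, had 3.44 and 2.46 TPM on day 13, against 31.8 and 24.7 on day 11 (log2 change -2.89 ± 0.58). Of 18 Notch pathway genes 6 fell and 3 rose (5 and 3 after rescaling), with a median log2 change of -0.05 (0.21 after rescaling). Hes1, the target gene of Notch, had 23.8 and 26.1 TPM on day 13, against 239 and 201 on day 11 (log2 change -3.09 ± 0.22). Notch1 had 0.84 and 0.33 TPM on day 13, against 4.23 and 13.8 on day 11 (log2 change -2.49 ± 0.40). Jag1, a Notch ligand, had 162 and 163 TPM on day 13, against 54.1 and 53.2 on day 11 (log2 change 1.58 ± 0.21). The ligand Jag1 and the receptor Notch1 thus changed in opposite directions, and Jag2, the most abundant of the list, had 228 and 216 TPM on day 13, against 234 and 211 on day 11 (log2 change -0.00 ± 0.13, 0.43 after rescaling).

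Of 11 retinoic acid genes 4 fell and 0 rose (4 and 1 after rescaling). Aldh1a1, which makes retinoic acid, had 5.91 and 5.52 TPM on day 13, against 252 and 273 on day 11 (log2 change -5.29 ± 0.26, adjusted p = 1e-14). Dhrs3, which lowers its precursor, had 8.59 and 4.95 TPM on day 13, against 47.4 and 56.4 on day 11 (log2 change -2.80 ± 0.59). Of 19 Hox genes tested 6 fell and 1 rose (5 and 2 after rescaling), all at low levels, with Hoxc6 at 0 in both libraries on day 13, against 17.7 and 12.3 on day 11. Of 19 genes of the p53 family and apoptosis 6 fell and 0 rose (4 fell after rescaling). Cdkn1a, the cell cycle inhibitor p21, had 7.62 and 9.99 TPM on day 13, against 52.5 and 49.4 on day 11 (log2 change -2.41 ± 0.27). Bak1, a pore-forming apoptosis protein, had 1.29 and 1.35 TPM on day 13, against 19 and 31.6 on day 11 (log2 change -3.46 ± 0.65). Mcl1, a survival protein and the most abundant of that list, had 128 and 124 TPM on day 13, against 203 and 215 on day 11 and was not called (log2 change -0.73 ± 0.087).

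Genes of the respiratory chain, the mitochondrial ribosome, the proteasome and ribosome biogenesis were rarely called. Of 57 respiratory chain and ATP synthase genes 0 rose and 1 fell (2 and 1 after rescaling), with a summed level of 30440 and 30870 TPM on day 13, against 31710 and 31850 TPM on day 11. Of 59 mitochondrial ribosomal proteins 0 rose and 1 fell (2 rose and 0 fell after rescaling), of 31 proteasome subunits 1 rose and 2 fell (1 and 0 after rescaling) and of 22 ribosome biogenesis genes 0 were called. In glycolysis and glucose uptake 6 of 15 fell and 0 rose (5 fell and 2 rose after rescaling). Slc2a1, a glucose transporter, had 13.8 and 11.5 TPM on day 13, against 31.5 and 39.5 on day 11 (log2 change -1.42 ± 0.21), whereas Pfkfb3, which makes the activator of glycolysis, had 145 and 146 TPM on day 13, against 87.8 and 78.2 on day 11 and passed only after rescaling (log2 change 0.81 ± 0.29, adjusted p = 0.028, 1.24 after rescaling). Eno3, the muscle enolase, had 4.28 and 1.61 TPM on day 13, against 30.3 and 8.81 on day 11 (log2 change -2.24 ± 0.42). Its libraries differed from each other on both days, and its log2 change was -1.40 without replicate 1 of day 11. In cholesterol synthesis, which mouse oocytes leave largely to their granulosa cells, 3 of 17 fell and 0 rose (1 fell and 3 rose after rescaling). Cyp51, a demethylase of that pathway, had 14.5 and 14 TPM on day 13, against 36.6 and 47.8 on day 11 (log2 change -1.49 ± 0.26). Insig1, which restrains it, had 681 and 664 TPM on day 13, against 396 and 399 on day 11 and passed only after rescaling (1.19).

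Of 21 genes of folding and secretion in the endoplasmic reticulum 0 rose and 2 fell (4 and 1 after rescaling). Hspa5, the main chaperone there, had 1536 and 1566 TPM on day 13, against 998 and 926 on day 11 and passed only after rescaling (log2 change 0.69 ± 0.053, adjusted p = 7.7e-11, 1.12 after rescaling). Ddit3, a stress-induced factor, had 17.7 and 13.3 TPM on day 13, against 127 and 134 on day 11 (adjusted p = 3.7e-10). Genes of cell division were mostly not called: 2 of 28 replication genes fell (3 rose and 0 fell after rescaling), and 2 of 26 mitosis and spindle genes fell (2 rose and 1 fell after rescaling). Top2a, a topoisomerase of dividing cells, had 10.1 and 8.89 TPM on day 13, against 38.6 and 48.5 on day 11 (log2 change -2.08 ± 0.16). Nup214 was the 1 nuclear pore gene of 21 that rose, with 137 and 129 TPM on day 13, against 41.2 and 37.6 on day 11 (log2 change 1.73 ± 0.16), and 2 rose after rescaling. Of 31 kinesin motor genes 1 rose, 2 fell and 28 were not called. Kif17, the member that rose, had 116 and 118 TPM on day 13, against 24.1 and 23.5 on day 11 (log2 change 2.25 ± 0.21). Kif1a, a neuronal motor and 1 of those that fell, had 0.07 and 0.43 TPM on day 13, against 6.86 and 7.51 on day 11 (log2 change -2.73 ± 0.42). Solute carriers were called about as often as all genes, with 14 of 214 rising and 39 falling (24 and 30 after rescaling), and so did Zfp zinc finger genes, with 7 of 170 rising and 24 falling (13 and 11 after rescaling).

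**Figure D4:**
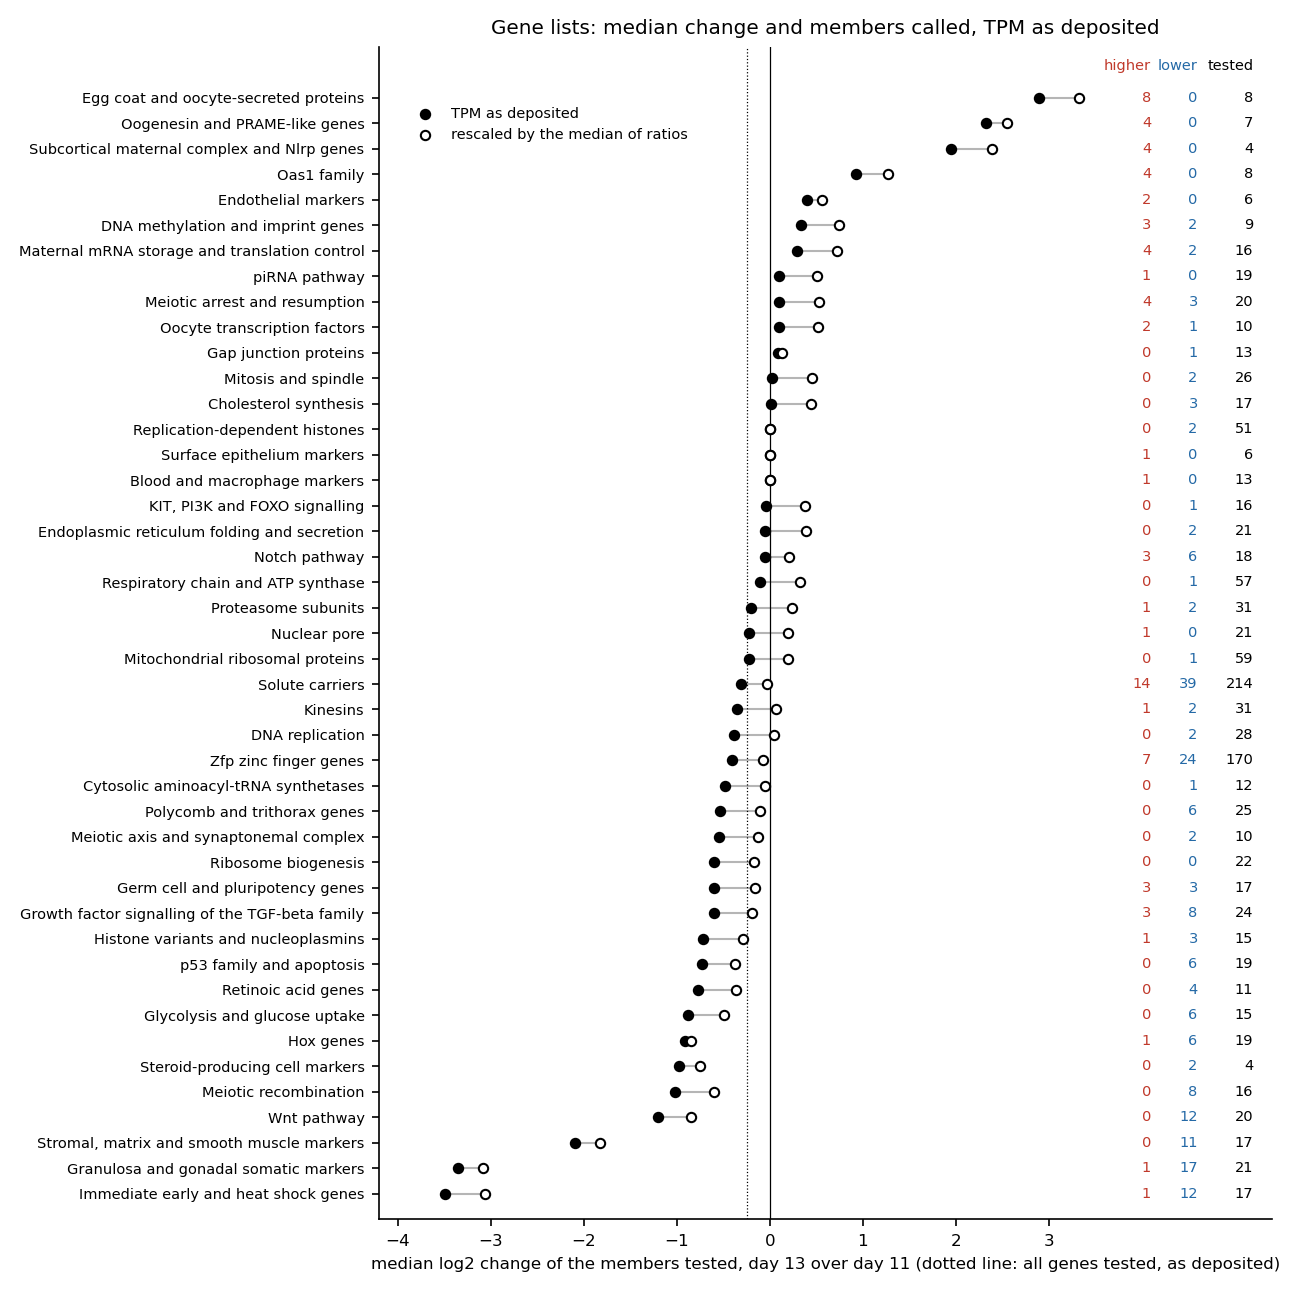
Median log2 change, day 13 over day 11, of the tested members of each of 44 gene lists on TPM as deposited (filled) and after rescaling (open), with the number of members that rose, fell and were tested at the right. The egg coat list lies highest at 2.89, the immediate early list lowest at -3.49, and rescaling moves most lists to the right of 0 where they stood just below it.

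Levels of the same genes in samples outside the comparison are given as descriptions, because the knockout comparisons of the study use the same wild-type libraries. The median level of the 677 genes that rose was 17.1 and 17.3 TPM in the wild-type libraries of day 13, against 2.84 and 3.63 TPM on day 11. In 8 of the 15 knockouts of day 13 (Ell3, Foxr1, Hes6, Kdm1b, Mef2b, Noto, Sfr1 and Tcf25) it lay between 13.3 and 18.3 TPM in every library. It was 11.1 and 11.7 TPM in the Thap7 knockout, 10.6 and 10.7 TPM in the libraries labelled Ccnk knockout and 8.77 and 9.47 TPM in the Ybx3 knockout. Lower values were found in the Tbpl2 knockout (5.67 and 5.7 TPM), the Nobox knockout (3.44 and 3.58 TPM), the Dynll1 knockout (2.94 and 2.95 TPM) and the Sohlh1 knockout (0 and 2.83 TPM, the libraries of which differ from each other more than those of other groups). The 4 knockouts of day 11 (Figla, Lhx8, Stat3 and Sub1) stood between 1.3 and 2.18 TPM, below every wild-type library of that day. Incompetent GV oocytes had 32.8 to 33.8 TPM.

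The median level of the 2030 genes that fell was 3.05 and 3.13 TPM in the wild-type libraries of day 13, against 18.5 and 18.9 TPM on day 11. The 8 knockouts named above had 3.54 to 7.01 TPM, the Tbpl2, Nobox, Dynll1 and Ybx3 knockouts had 15.7 to 21.3 TPM and the day 11 knockouts 20.1 to 23.5 TPM. The Thap7 and Ccnk knockouts had 6.56 to 7.54 TPM, and the Sohlh1 knockout had 10.85 and 18.1 TPM. In incompetent GV oocytes, which grew in the animal, it was 1.39 to 1.5 TPM.

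Single genes differed in how their day 13 level stood against that of GV oocytes (n = 3 libraries, mean ± SD). Padi6 and Zp3 stood above the GV level of 10510 ± 1530 TPM and 10320 ± 1451 TPM. Oosp1, Gdf9 and Zar1 stood below theirs, which were 2921 ± 523 TPM, 8925 ± 164 TPM and 3521 ± 196 TPM. Oog3, Oog4 and Dnmt3l stood far below theirs, since GV oocytes held 1082 ± 58.8 TPM, 1244 ± 90 TPM and 258 ± 17.4 TPM. Sohlh1, not called between the days, stood at 20.6 ± 6.69 TPM in GV oocytes. Of the 677 genes that rose, 56 (8.27%) were under 1 TPM in incompetent GV oocytes and 438 (64.7%) stood above their own day 13 level, against 30.9% and 44.1% of all genes tested. Of the 2030 that fell, 926 (45.6%) were under 1 TPM there and 107 (5.27%) stood above their day 11 level, against 30.9% and 36.9% of all genes tested. Genes that fell were picked for a high day 11 level, so a low share above that level was in part set by the choice. Genes that rose had to be present on day 13, while genes tested could be present in knockouts only. The shares under 1 TPM therefore also depend on the choice of genes. The summed granulosa markers lay at 278 to 295 TPM in GV oocytes, between the values of day 13 and day 11, and at 91.7 (Ell3 knockout) to 1353 TPM (Ybx3 knockout) over the day 13 knockouts. Preparation differed between these sources, and its part was not tested.

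**Figure D5:**
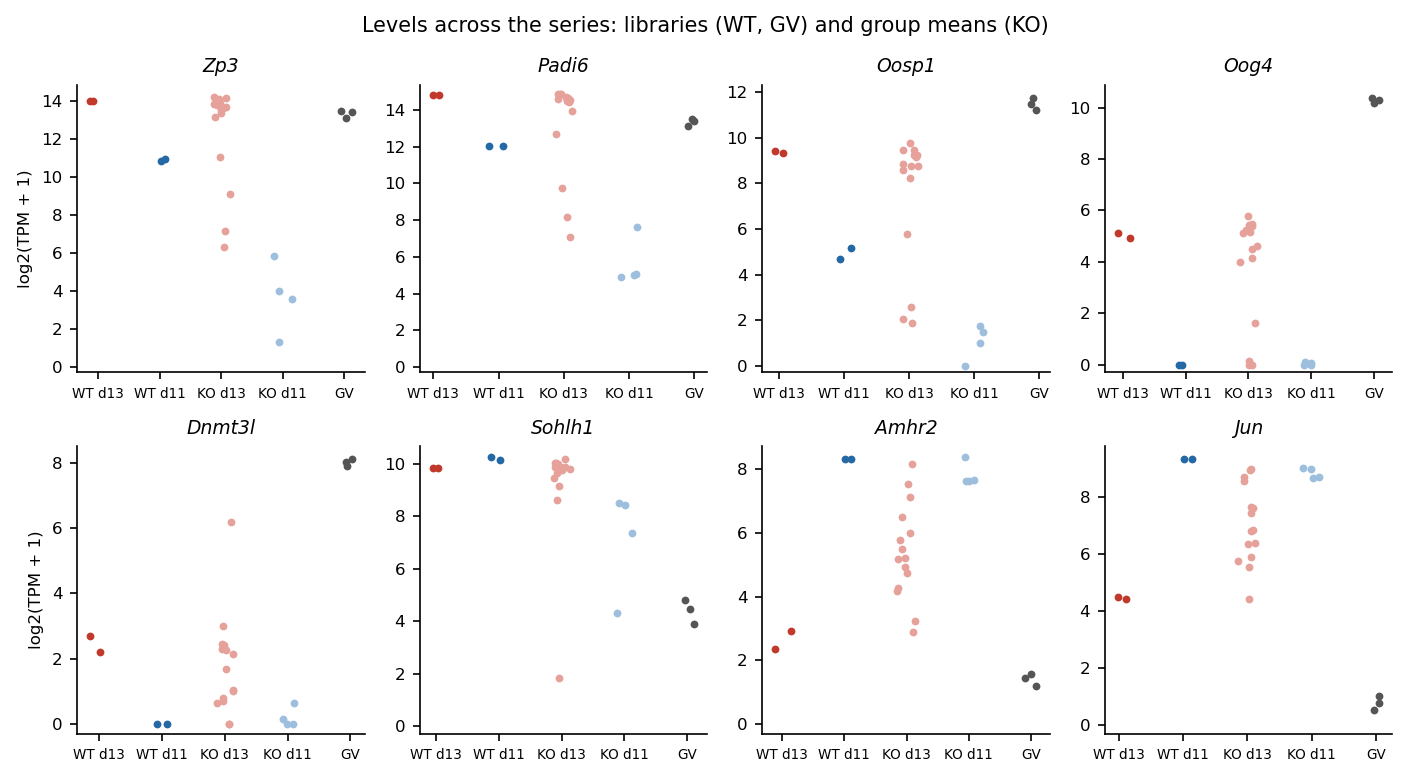
log2(TPM + 1) of 8 genes in the wild-type libraries of day 13 and day 11 (WT d13, WT d11; points are libraries), the 15 knockouts of day 13 and the 4 of day 11 (KO d13, KO d11; points are group means of 2 libraries) and incompetent GV oocytes (GV; points are 3 libraries). Oog4 and Dnmt3l are near 0 on day 11 and far higher in GV oocytes than on day 13, while Amhr2 and Jun are high on day 11 and spread over the day 13 knockouts.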

How the data were processed

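Libraries were directional and polyA-selected, per the labels' protocols. Per the submitters' processing notes, the tools used were STAR 2.6.0 and featureCounts 1.6.0 and the genome build mm10. The authors deposited TPM, with a single value for each symbol in each library. The handling of reads with several matches is not given in the sources used here. Of 15163 rows, 1 incomplete row at the end and 22 with date-like names were dropped, leaving 15140 genes. Of these 14530 matched 1 gene of GENCODE M21 (GRCm38), the source of gene positions. Columns of no sample (80) were left out, and 3 of the 71 samples matched no column. TPM keep no depth, so no counting error is given.

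Changes were computed with limma 3.58.1 in R 4.3.3 (trend and robust options) on log2(TPM + 1), in 1 fit of 42 in vitro oocyte libraries in 21 groups with 21 residual degrees of freedom. Most of the spread is therefore estimated in knockout groups. Adding 1 understates the changes of scarce genes. Genes with at least 1 TPM in at least 2 of the 42 libraries were tested. Adjustment of p over all of them followed Benjamini and Hochberg. Rescaling divided each library by its median ratio to the mean profile of the 42. The steps were tested on simulated data.

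The members, lists and tests were chosen with earlier results of these data known. Genes named are the 15 largest rises and falls at 10 TPM or more, the 10 largest gains and losses in TPM, the 5 highest genes listed at 0 on the other day, up to 5 called genes and the most abundant gene of each list, and the oocyte transcription factors. Fgf8, Ccnb1, Fos, Gata4, Wt1, Lhx2, Hsp90aa1 and Ddx4, list members outside that rule, were added after their values were seen, and some genes it gives are not reported here. Alternatives were a pseudocount of 0.1, no filter, a filter on the 4 wild-type libraries, a replicate block, rescaling, other sets of libraries in the fit, no fold threshold and each wild-type library left out.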

Additional observations from a re-analysis of the deposited data

How the results depend on the processing

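Under the alternatives other than those given next, between 560 and 761 genes rose and between 1360 and 2200 fell, each within 1.5 times the numbers reported. After rescaling by the median of ratios 1154 genes rose, and without a fold threshold 1201 rose and 3781 fell. Leaving out 1 wild-type library gave 583 to 711 genes that rose and 1824 to 2109 that fell. The lone library of that day is then assumed to vary like the other groups. The median log2 change over all genes was -0.243 and became -0.261 with a pseudocount of 0.1, -0.129 with no filter, -0.359 with a filter on the 4 wild-type libraries, 0 after rescaling, and -0.238 to -0.176 with 1 library left out. With the replicate block 676 genes rose and 2032 fell. The labels do not say that a number pairs libraries, and the deviations of same-numbered libraries correlated at -0.0166 across genes. Of 160 genes with values in the text, the calls of 11 ended at a pseudocount of 0.1, of 3 with only the 4 wild-type libraries, of 5 after rescaling and of 5 to 7 with 1 library left out, while 8 passed after rescaling and 17 without a fold threshold. No called gene among them turned round. The p-values at a pseudocount of 0.1 rest mostly on spread within knockout groups. In Eif4e1b and Cdc25b, whose calls ended there, the log2 change moved only from 3.55 to 3.56 and from 1.81 to 1.83. With only the 4 wild-type libraries both kept their calls (limma, adjusted p = 6.7e-05 and 0.0015). Fgf8 moved from 2.57 to 2.75 and also kept its call with those libraries (adjusted p = 0.0015). How far knockout spread ended the 11 calls was not tested. Of genes not called, Foxo3, Jag2, Sohlh1, Sycp3 and Taf4b turned above 0 after rescaling, with log2 changes of 0.404, 0.433, 0.072, 0.076 and 0.102. With 1 library left out Foxo3 lay between -0.067 and 0.013 and Jag2 between -0.073 and 0.072.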

Other observations

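A set of 8 genes of the interferon response, chosen after their values were seen, was mostly lower on day 13. Of the 8 genes 7 fell and 1, Mx1, was not called, before and after rescaling. Over all genes tested 16.5% fell, and 11.1% after rescaling. Because of that choice the count is no result about the response. The set leaves out the Oas1 family, copies related to an antiviral enzyme, of which 4 rose and 0 fell. Cxcl10, a chemokine, had 4.94 and 8.2 TPM on day 13, against 346 and 315 on day 11 (log2 change -5.49 ± 0.44, adjusted p = 2e-10). Isg15, a ubiquitin-like protein, had 4.16 and 0 TPM on day 13, against 50 and 43.7 on day 11 (log2 change -4.39 ± 0.69, adjusted p = 1.2e-05). Ifit1 had 0.87 and 0.78 TPM on day 13, against 37 and 24.3 on day 11 (log2 change -4.09 ± 0.38). All 3 were far lower in both libraries of day 13. Ifih1, a sensor of double-stranded RNA, had 0 and 0.14 TPM on day 13, against 11.6 and 13.5 on day 11 (log2 change -3.66 ± 0.33). Mx2 had 0 in both libraries on day 13, against 20.4 and 9.51 on day 11 (adjusted p = 1.6e-05). The 8 genes summed to 10.8 and 9.12 TPM on day 13, against 479 and 416 TPM on day 11. Over the 4 knockouts of day 11 the sums of group means were 27.0 (Figla) to 159.6 TPM (Sub1), below both wild-type libraries of that day. Over the knockouts of day 13 they were 2.96 (Tcf25) to 197 TPM (Nobox), and incompetent GV oocytes had 2.43 to 3.06 TPM. The granulosa markers summed to 941 to 1597 TPM in the day 11 knockouts, against 1105 and 1109 TPM in wild type of day 11. Which cells the interferon transcripts came from was not tested. The difference in interferon sums between wild type and knockouts of day 11 was not tested. Because the genes were chosen with values seen, it may in part be set by that choice.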
